A study of Mus musculus with 58 samples.

Results

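The genes examined here are 10 genes of the resting, supportive work of astrocytes, read as RNA in the injured and uninjured brains of mice that carry human *APOE*. They are *Slc1a2*, *Slc1a3*, *Glul*, *Kcnj10*, *Gja1*, *Gjb6*, *Aldh1l1*, *Aldoc*, *S100b* and *Slc4a4*, chosen by name, and all 10 were found among the 15171 genes of the count table. Each has 1 row of counts in each of 58 mice. The mice were 3 months old at surgery, and the tissue, cortex and hippocampus from the injury site, was taken 14 days later for bulk RNA sequencing. All mice were on the C57BL/6 background and carried the human *APOE3* (E3) or *APOE4* (E4) gene in place of mouse *Apoe*, on both chromosomes. They had 2 copies of *Abca1* (Abca1+/+) or 1 (Abca1+/-), *Abca1* being the gene of a membrane transporter that loads lipid onto APOE. The change was inherited and not driven by a cell type promoter, so it was not limited to astrocytes. TBI was modelled by controlled cortical impact over the left parietal cortex, and sham mice had the craniotomy alone. The sham and TBI groups held 8 and 8 mice of E3/Abca1+/+, 7 and 6 of E3/Abca1+/-, 7 and 7 of E4/Abca1+/+, and 7 and 8 of E4/Abca1+/-, with both sexes in every group.

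Astrocytes take up the glutamate and potassium that neurons release. Glutamate enters through the transporters encoded by *Slc1a2* (GLT-1) and *Slc1a3* (GLAST) and is turned into glutamine by glutamine synthetase, the product of *Glul*. Potassium passes through the channel Kir4.1, encoded by *Kcnj10*, and spreads from cell to cell through gap junctions built of connexin 43 (*Gja1*) and connexin 30 (*Gjb6*). *Slc4a4* encodes a sodium and bicarbonate cotransporter that sets pH, *Aldh1l1* a folate enzyme, *Aldoc* a glycolytic aldolase, and *S100b* a calcium-binding protein. After injury astrocytes take on a reactive state with more intermediate filament, and how much of the resting programme they keep is a standing question for which these genes are commonly read. Not all of them are limited to astrocytes: *Kcnj10*, *S100b* and *Glul* are also known from cells of the oligodendrocyte lineage.

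Counted reads per mouse summed to between 4421308 and 37877346. The Abca1+/- libraries were deeper, with a median of 18871446 reads (n = 28) against 8350020 (n = 30) for Abca1+/+, so that *Abca1* copies and depth cannot be told apart by design. Every member was well above the counting floor: the lowest count of any member in any mouse was 225, for *Aldh1l1*. Levels are given as CPM, the reads of a gene per 1000000 counted reads after scaling between libraries. Among E3 sham mice, *Abca1* itself stood at 48.5 ± 6.92 CPM (SD, n = 8) with both copies and at 35.3 ± 3.84 CPM (SD, n = 7) with 1. Its log2 fold change between Abca1+/- and Abca1+/+ averaged over isoform and injury was -0.42 (SE 0.09, adjusted p = 0.000816, edgeR). Taken one setting at a time, *Abca1* passed in E3 sham mice (-0.45, adjusted p = 0.00933, edgeR). It did not pass in E3 TBI (-0.71, adjusted p = 0.118), E4 sham (-0.35, adjusted p = 0.0783) or E4 TBI mice (-0.19, adjusted p = 0.724, edgeR). The astrocyte, neuronal, oligodendrocyte, microglial and endothelial markers were all above 1 CPM on average, as were all but 1 of 4 ependymal markers. A pair of mice stood apart from their groups, and they were sought only within the E4/Abca1+/- groups. They had the lowest hippocampal neuron score among TBI mice and the highest microglial score among sham mice of that genotype. In E4/Abca1+/- TBI replicate 8 the score of 6 hippocampal neuron genes, the mean log2(CPM + 1), was 1.99 against 4.31 to 4.82 in the other mice of that group. In E4/Abca1+/- sham replicate 2 the score of 6 microglial markers was 5.29 against 4.85 to 5.14 in the others. Its score of 8 reactive astrocyte genes was 4.84 against 3.8 to 4.23. Results that changed their call without these mice are given both ways.

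Divided by the length that all annotated exons of a gene cover, the sham mice held most *Glul* RNA, at 425.7 ± 30.1 CPM per kilobase (SD, n = 29). *Slc1a2* followed at 287.9 ± 29.4 and *Aldoc* at 261.6 ± 17.9 CPM per kilobase, and these neighbours changed places between mice, since *Slc1a2* was the higher in 20 of 29. A step down came *Slc1a3* at 88.6 ± 5.56, *S100b* at 73.5 ± 7.12 and *Kcnj10* at 40.8 ± 4.26 CPM per kilobase. *Gjb6* had 25.5 ± 3.38, *Gja1* 18.5 ± 1.34, *Slc4a4* 17.1 ± 1.72 and *Aldh1l1* 12.8 ± 0.996 CPM per kilobase. *Gja1* was above *Slc4a4* in 23 of 29 sham mice, and the other orders between neighbours held in 29 of 29. These orders depend on the lengths used, which were 10257 bases for *Gja1* and 2674 for *Gjb6*. Before division *Gja1* was the higher of this pair, at 189.8 ± 13.7 CPM against 68.1 ± 9.03 CPM (SD, n = 29). These are levels in whole tissue, in which a different number of astrocytes and a different amount of RNA in each cannot be told apart.

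To examine the effect of TBI on these genes, injured and sham mice were compared over all genotypes and within each. Averaged over the 4 genotypes, 9 of the 10 genes were higher in TBI than in sham mice and 0 were lower (edgeR quasi-likelihood, adjusted p under 0.05), beside 29% of all genes called higher and 24.3% called lower in the same fit. The median log2 fold change was 0.22 over the members and 0.012 over all 15171 genes. The members fell into a high and a low set. *S100b*, *Slc1a3* and *Gja1* rose by 0.57, 0.56 and 0.54 on the log2 scale, and the other 7 lay between 0.08 and 0.27. Without the pair of mice that stood apart the count was again 9.

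The strong responders are described first, with their promoters, which are shown because these genes had the largest averaged rises. *Slc1a3* lies on chromosome 15 (chr15:8634124-8710764, minus strand, mm10 with GENCODE vM21), *Gja1* on chromosome 10 (chr10:56377330-56402513, plus strand), and *S100b* on the same chromosome (chr10:76253853-76261159, plus strand). The 250 bases before each start in RefSeq (GRCm38.p6) overlap no annotated exon and span chr15:8710808-8711057 on the minus strand for *Slc1a3*, chr10:56377050-56377299 on the plus strand for *Gja1*, and chr10:76253586-76253835 on the plus strand for *S100b*. They read as follows, with matches to 4 motifs in capitals.
Slc1a3: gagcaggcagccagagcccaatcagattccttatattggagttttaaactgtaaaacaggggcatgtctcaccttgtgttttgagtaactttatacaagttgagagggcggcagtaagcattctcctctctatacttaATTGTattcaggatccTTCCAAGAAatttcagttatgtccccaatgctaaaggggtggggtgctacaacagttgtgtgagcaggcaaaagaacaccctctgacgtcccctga
Gja1: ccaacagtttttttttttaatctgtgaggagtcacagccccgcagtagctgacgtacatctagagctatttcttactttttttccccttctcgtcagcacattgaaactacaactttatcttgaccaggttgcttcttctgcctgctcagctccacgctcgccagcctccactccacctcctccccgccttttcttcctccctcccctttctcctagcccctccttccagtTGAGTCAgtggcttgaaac
S100b: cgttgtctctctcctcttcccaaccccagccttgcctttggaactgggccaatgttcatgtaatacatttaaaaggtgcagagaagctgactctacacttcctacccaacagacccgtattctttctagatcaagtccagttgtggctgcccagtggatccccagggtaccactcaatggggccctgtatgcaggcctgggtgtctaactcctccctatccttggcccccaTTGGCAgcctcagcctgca

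The motifs were searched on both strands: a STAT site TTCNNNGAA, an AP-1 site TGANTCA, an NFI half-site TTGGCA and a SOX core ACAAT. The *Slc1a3* window held a STAT match starting 96 bases before the start and a SOX match at 112. The *Gja1* window held an AP-1 match at 19 bases, and the *S100b* window an NFI match at 19 bases. No match lay over another in these windows. Among the 15023 windows of genes in the count table, 5.8% held the STAT letters, 4.6% the AP-1 letters, 10.1% the NFI letters and 18.3% the SOX letters. Over the 12 windows of the 10 members (*Aldoc* and *Slc4a4* have a pair each) the counts were 2, 1, 2 and 2. No motif was found in more than 1 of the 3 windows printed above. A match describes the letters and is not evidence of binding.

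*Slc1a3*, the glutamate transporter GLAST, ranged from 675.2 to 881.4 CPM in the 29 sham mice, with a median of 747.5. In the 29 TBI mice it ranged from 844.1 to 1539.5 CPM, with a median of 1112.3. Of the TBI mice 28 lay above the highest sham mouse. In E3/Abca1+/+ mice the lowest, median and highest values were 676.1, 754.7 and 792.6 CPM in sham and 979.8, 1098.5 and 1504.5 CPM in TBI mice. In E3/Abca1+/- mice they were 675.2, 746.2 and 881.4 CPM in sham and 926.5, 1042.2 and 1297 CPM in TBI mice. In E4/Abca1+/+ mice they were 691.8, 740.0 and 783.8 CPM in sham and 844.1, 1018.5 and 1381.8 CPM in TBI mice. In E4/Abca1+/- mice they were 691.3, 764.7 and 853.3 CPM in sham and 921.9, 1202 and 1539.5 CPM in TBI mice. Within each genotype every TBI mouse was above every sham mouse, and the TBI groups were the more spread, with coefficients of variation of 13.7% to 18% against 4.21% to 9.12% in sham. On the log2 scale the rise was 0.58 (SE 0.07) for E3/Abca1+/+, 0.48 (SE 0.08) for E3/Abca1+/-, 0.52 (SE 0.09) for E4/Abca1+/+ and 0.61 (SE 0.09) for E4/Abca1+/- mice, with adjusted p from 1.67e-06 to 0.00072 (edgeR).

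*S100b*, the calcium-binding protein, gave the largest averaged change of the 10, 0.57 (95% interval 0.48 to 0.66, adjusted p = 5.88e-16, edgeR). Its lowest, median and highest values over the sham mice were 85, 109.4 and 126.9 CPM. Over the TBI mice they were 109.9, 163.4 and 209.0 CPM, and 28 of 29 TBI mice exceeded every sham mouse. The groups did not overlap in 3 of the 4 genotypes. In E4/Abca1+/+, where they did, 6 of 7 TBI mice were above the highest sham mouse. The medians of sham and TBI mice were 110.4 and 154.5 CPM in E3/Abca1+/+, 113.0 and 162.2 CPM in E3/Abca1+/-, 105.8 and 143.2 CPM in E4/Abca1+/+, and 114.7 and 177.7 CPM in E4/Abca1+/- mice. Folds ran from 1.44 to 1.55, with adjusted p from 3.48e-06 to 0.00397 (edgeR).

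*Gja1*, the gene of connexin 43, completed this set. Its sham mice lay between 149.8 and 217.5 CPM, with a median of 189.6, and its TBI mice between 211.2 and 406.7 CPM, with a median of 272.6. Over all mice 26 of 29 TBI mice were above the highest sham mouse, and within each genotype there was no overlap. The medians of sham and TBI mice were 194.9 and 272.2 CPM in E3/Abca1+/+, 181.5 and 266.1 CPM in E3/Abca1+/-, 195.2 and 264.6 CPM in E4/Abca1+/+, and 184.8 and 278.9 CPM in E4/Abca1+/- mice. The smallest rise, 0.48 on the log2 scale (SE 0.07), was that of E4/Abca1+/+ mice and the largest, 0.59 (SE 0.10), that of E4/Abca1+/- mice. Adjusted p was at most 0.000203 (edgeR).

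The plot of CPM by group shows the size of these shifts beside the smaller ones of the other members.

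**Figure D1:**
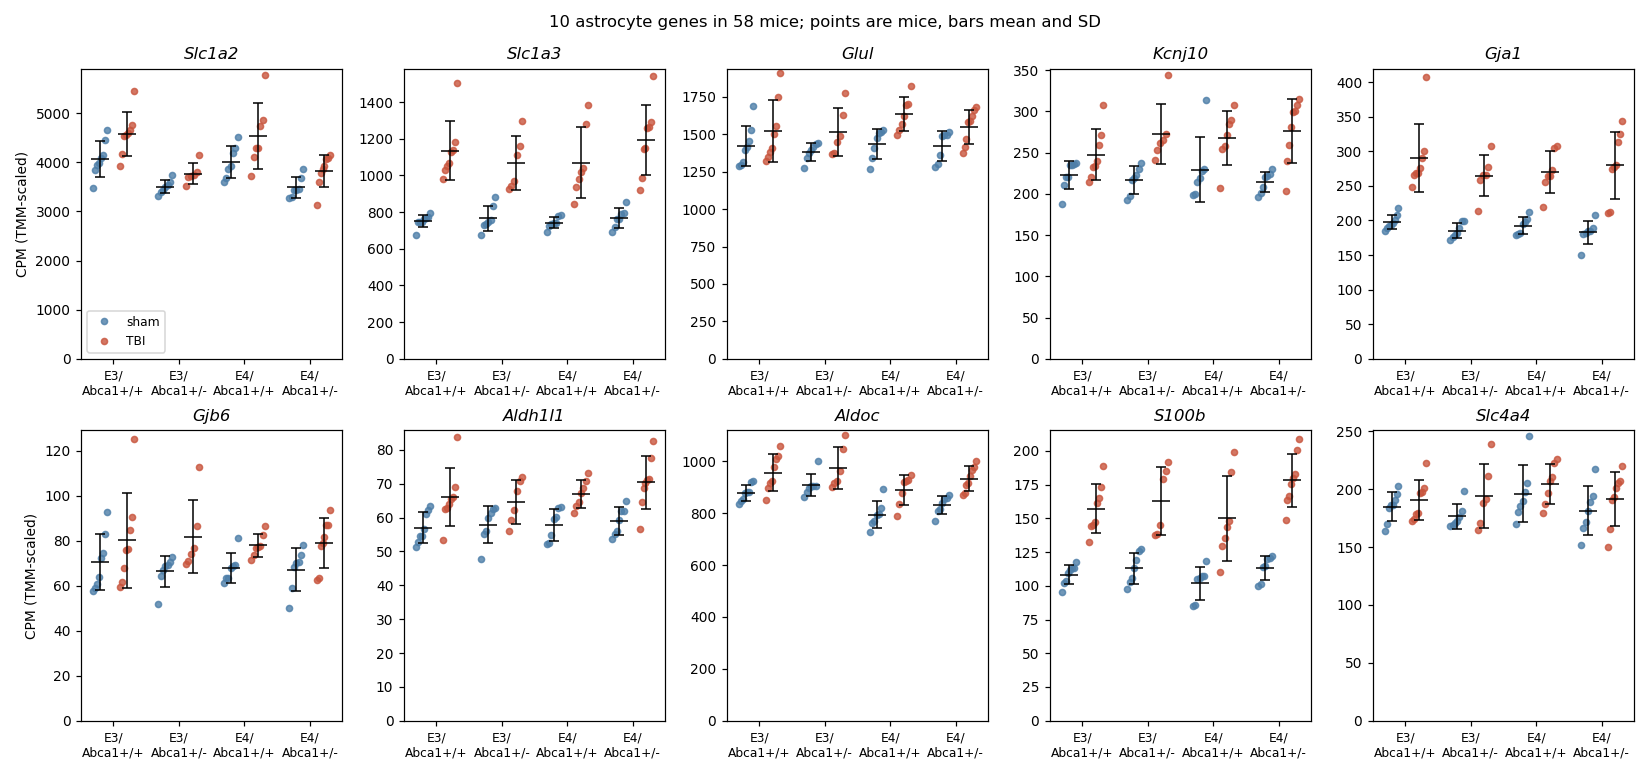
CPM (vertical axis, TMM-scaled, from 0) of each of the 10 genes in the 8 groups (horizontal axis); points are mice, sham in blue and TBI in red, and black bars give the mean and SD. For *Slc1a3* and *Gja1* every TBI mouse lies above every sham mouse of its genotype, while for *Slc4a4* the groups overlap in all 4.

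The other glutamate transporter moved much less. *Slc1a2* (chr2:102658659-102790784, plus strand) ranged from 3271.8 to 4655.6 CPM in sham and from 3132.5 to 5778.7 CPM in TBI mice, with medians of 3681.1 and 4111.9. The lowest value of all 58 mice was thus in a TBI mouse, and 6 of 29 TBI mice exceeded the highest sham mouse. Averaged over genotypes it rose by 0.15 on the log2 scale (SE 0.03, adjusted p = 0.000129, edgeR), or 10.7%. By genotype its log2 fold changes were 0.15 and 0.11 for E3 mice with 2 and 1 copies of *Abca1*, and 0.17 and 0.10 for E4 mice. With each genotype fitted on its own it passed in E3/Abca1+/- mice (adjusted p = 0.0441, edgeR), and that call was lost with DESeq2's Wald test (adjusted p = 0.0611) and in 10 of the 13 fits that left out 1 mouse. With a single fit over all 58 mice it passed in E3/Abca1+/+ (0.17, adjusted p = 0.035) and E4/Abca1+/+ mice (0.18, adjusted p = 0.0496) and not in E3/Abca1+/- mice (0.11, adjusted p = 0.308, edgeR).

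Because both transporters were counted in the same libraries, their ratio does not depend on how libraries are scaled. *Slc1a2* counts were 5.42 times *Slc1a3* counts in E3/Abca1+/+ sham and 4.05 times in TBI mice. The ratio was 4.59 and 3.55 in E3/Abca1+/-, 5.39 and 4.27 in E4/Abca1+/+, and 4.55 and 3.23 in E4/Abca1+/- mice. It was lower after injury in each genotype, with a difference of log2 ratios of -0.42, -0.37, -0.34 and -0.49 in that order. Two-sided exact permutation tests gave p = 0.000466, 0.000583, 0.0117 and 0.000311, and 0.00155, 0.00155, 0.0133 and 0.00155 after adjustment over the 8 ratio tests. In E4/Abca1+/- all 8 TBI mice were below the lowest sham mouse, and in E4/Abca1+/+ it was 5 of 7. With a difference of medians in place of means the E4/Abca1+/+ result was -0.28 (exact permutation p = 0.0666 after the same adjustment).

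*Glul*, which makes glutamine from the glutamate taken up, lies on chromosome 1 (chr1:153899944-153909723, plus strand). It ranged from 1268.1 to 1687.6 CPM in sham and from 1324.3 to 1907.1 CPM in TBI mice, with medians of 1412 and 1555.2. The averaged rise was 0.14 on the log2 scale (SE 0.03, adjusted p = 0.000301, edgeR), with 6 of 29 TBI mice above every sham mouse. Among the genotypes it passed in E4/Abca1+/+, at 0.18 (SE 0.05, adjusted p = 0.0282, edgeR), where the medians were 1472.9 CPM in sham and 1619.2 CPM in TBI mice. That call was lost in 5 of the 14 fits that left out 1 mouse (adjusted p up to 0.0626, edgeR). The log2 fold change in the other genotypes was 0.08, 0.13 and 0.10 for E3/Abca1+/+, E3/Abca1+/- and E4/Abca1+/- mice (adjusted p 0.0992 or more, edgeR).

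*Kcnj10*, the potassium channel gene (chr1:172341210-172374085, plus strand), took a middle place. Its values ran from 187.8 to 313.6 CPM in sham and from 203.9 to 344.0 CPM in TBI mice, with medians of 220.1 and 261.3. The averaged log2 fold change was 0.27 (SE 0.04, adjusted p = 5.06e-07, edgeR). It rose in both Abca1+/- genotypes, by 0.33 (SE 0.07, adjusted p = 0.00333) in E3 and 0.34 (SE 0.08, adjusted p = 0.00292) in E4 mice (edgeR). In Abca1+/+ mice the values were 0.14 (SE 0.07, adjusted p = 0.156) in E3 and 0.22 (SE 0.10, adjusted p = 0.169) in E4 mice (edgeR). The difference of injury effects between *Abca1* genotypes was itself 0.16 (95% interval -0.01 to 0.34, unadjusted p = 0.0669, adjusted p = 1.0, edgeR), so no difference was established. The E4/Abca1+/+ sham group held 1 mouse at 313.6 CPM, above all 7 TBI mice of that genotype. Without it the E4/Abca1+/+ log2 fold change was 0.315 (adjusted p = 0.0118, edgeR).

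*Gjb6*, the second connexin gene (chr14:57123303-57133611, minus strand), had 50.0 to 92.8 CPM in sham and 59.5 to 125.3 CPM in TBI mice, with medians of 68.8 and 77.1. It rose by 0.23 on the log2 scale in the average (SE 0.06, adjusted p = 0.000601, edgeR), with 3 of 29 TBI mice above every sham mouse. In single genotypes it passed in E3/Abca1+/- mice at 0.30 (adjusted p = 0.0421, edgeR), and that call was lost with sex as a covariate (adjusted p = 0.0529, edgeR) and in 9 of the 13 fits that left out 1 mouse. In E4/Abca1+/- mice it had 0.21 (adjusted p = 0.107, edgeR), and 0.25 without TBI replicate 8, the mouse low in hippocampal neuron genes (adjusted p = 0.0422, edgeR). Without both mice that stood apart the value was again 0.25 (adjusted p = 0.0614, edgeR). Per count of *Gja1*, the *Gjb6* count fell. The ratio of *Gjb6* to *Gja1* was 0.353 in sham and 0.272 in TBI mice of E3/Abca1+/+, 0.358 and 0.307 in E3/Abca1+/-, 0.352 and 0.29 in E4/Abca1+/+, and 0.366 and 0.284 in E4/Abca1+/- mice. Exact permutation p, two-sided, was 0.00497, 0.0437, 0.00117 and 0.00404, and 0.00663, 0.0437, 0.00233 and 0.00646 after adjustment over the 8 ratio tests. The E3/Abca1+/- value was lost with permutation within sex (exact permutation p = 0.0543 after adjustment), and in 10 of the 13 tests that left out 1 mouse.

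Among the enzymes and the cotransporter the changes were small. *Aldh1l1* (chr6:90486427-90600203, plus strand) went from a median of 59.4 CPM in sham to 67.2 CPM in TBI mice, with ranges of 47.8 to 64.9 and 53.5 to 83.9. It rose by 0.21 in the average (SE 0.04, adjusted p = 1.2e-06, edgeR), and 17 of 29 TBI mice were above every sham mouse. It passed in 3 genotypes, the value for E3/Abca1+/- mice being 0.16 (adjusted p = 0.117, edgeR). Its call in E3/Abca1+/+ mice (0.20, adjusted p = 0.0439, edgeR) was lost in 10 of the 16 fits that left out 1 mouse. *Aldoc* (chr11:78322968-78327781, plus strand) rose by 0.14 in the average (SE 0.02, adjusted p = 6.24e-07, edgeR), from a median of 859.1 to 922.6 CPM. It passed within E4/Abca1+/- mice, where sham mice lay at 770.3 to 867.9 CPM and all 8 TBI mice above them, at 871.6 to 1001.6 CPM (log2 fold change 0.14, adjusted p = 0.0111, edgeR). With all libraries thinned to one depth that value was 0.11 (adjusted p = 0.065, edgeR). *Slc4a4* (chr5:88886818-89239653, plus strand) was the member that did not pass. Its medians were 183.6 CPM in sham and 197.0 CPM in TBI mice, its averaged log2 fold change 0.08 (95% interval 0.00 to 0.16, unadjusted p = 0.0449, adjusted p = 0.0789, edgeR), and no TBI mouse exceeded the highest sham mouse, at 246.0 CPM. That limit was set by a single mouse, E4/Abca1+/+ sham replicate 2. The next sham mouse lay at 217.5 CPM, and the TBI mice reached 239.2 CPM.

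Counted by genotype, 4 of the 10 members were higher after TBI in E3/Abca1+/+ mice, 6 in E3/Abca1+/-, 5 in E4/Abca1+/+ and 6 in E4/Abca1+/- mice, and 0 were lower in any (edgeR, adjusted p under 0.05). The shares of all genes called higher were 12.5%, 13.7%, 9.08% and 17.7%, and of those called lower 10.8%, 10.1%, 4.98% and 16.3%. By DESeq2's Wald test the numbers were 4, 5, 7 and 6. All 10 log2 fold changes were above 0 in every genotype. Every TBI mouse was above every sham mouse for 3, 4, 2 and 4 members, beside 4.36%, 6.57%, 3.76% and 7.36% of all genes. Over all genotypes no member separated all TBI from all sham mice, which 1.05% of all genes did. The count for E4/Abca1+/+ rested on single mice: it was 8 without sham replicate 2 or TBI replicate 4, and 3 without sham replicate 1.

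**Figure D2:**
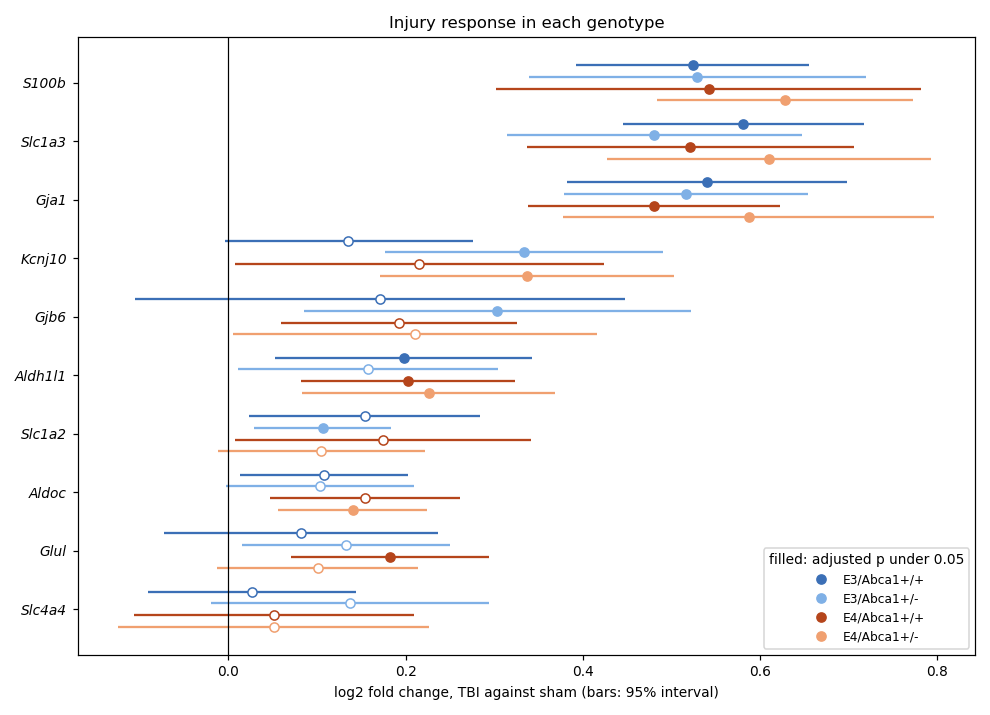
Log2 fold change of TBI against sham (horizontal axis, with 95% intervals) for the 10 genes (vertical axis) in each of the 4 genotypes (colours); filled points passed an adjusted p of 0.05. *S100b*, *Slc1a3* and *Gja1* lie between 0.48 and 0.63 and are filled in all 4 genotypes, and the intervals of the 4 genotypes overlap for every gene.

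The injury response was not shown to differ with isoform or *Abca1* copies. In the fit over all mice, 0 of the 10 members passed for injury by isoform, 0 for injury by *Abca1* and 0 for the three-way term (edgeR), and DESeq2's Wald test also gave 0, 0 and 0. At an unadjusted p under 0.05 the counts were 0 for each, beside 2.79%, 2.64% and 4.44% of all genes. With adjustment these terms called 1, 0 and 0 genes, or 0.00659%, 0.0% and 0.0%. For *Slc1a3* the difference of the injury effect, E4 minus E3, was 0.04 (95% interval -0.13 to 0.22), and for *S100b* 0.07 (95% interval -0.12 to 0.25). These intervals leave room for a difference in either direction.

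Other genes of the astrocyte gave the setting. Of 21 further astrocyte transporters, channels and their anchors, 16 rose and 1 fell after injury (edgeR, averaged), with a median log2 fold change of 0.27. The urea transporter gene *Slc14a1* rose by 1.11 (SE 0.07), the water channel gene *Aqp4* by 1.10 (SE 0.07) and *Mlc1*, an astrocyte membrane protein gene, by 0.70 (SE 0.04), and *Kcnk1*, a potassium channel gene, fell by 0.16 (SE 0.03). *Aqp4* was chosen for mention after its values were seen. The 4 not called were the glycine transporter gene *Slc6a9* (-0.01), the GABA transporter gene *Slc6a11* (0.14), *Slc7a10* (0.08) and *Slco1c1* (0.01). Of 20 other astrocyte-enriched genes 17 rose and 1 fell, with a median of 0.18. Those of smallest p that rose were *Clu*, by 0.82 (SE 0.04), and *Pla2g7*, by 0.48 (SE 0.04), while *Acsl6* fell by 0.09 (SE 0.02). The 8 reactive astrocyte genes all rose, with a median of 2.13, and *Gfap* and *Vim*, both of intermediate filaments, rose by 2.39 (SE 0.09) and 2.53 (SE 0.12). On that scale the rise of *S100b*, *Slc1a3* and *Gja1* was a small part of that of *Gfap*.

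Markers of other cells moved with injury as well. Of 8 neuronal markers 7 fell, with a median log2 fold change of -0.27, among them *Snap25* by 0.37 (SE 0.03) and *Gad1* by 0.28 (SE 0.03). Their score, the mean log2(CPM + 1), ran from 9.37 to 9.53 in sham and from 8.92 to 9.37 in TBI mice. All 6 microglial markers rose, with a median of 0.97, among them *Cx3cr1* at 0.99 and *Csf1r* at 0.96 (SE 0.05 for both). Of 6 cortical neuron genes 5 fell, among them *Tbr1* by 0.37 (SE 0.06), and of 6 hippocampal neuron genes 2 fell (*Dsp* by 0.86 and *Lct* by 0.79). Oligodendrocyte markers gave 2 higher, among them *Mbp* at 0.12, 1 lower, *Mal* at -0.21, and 5 not called. Of 4 precursor markers 2 rose (*Neu4* 0.25, *Gpr17* 0.22), of 6 endothelial markers 4 rose (*Cldn5* 0.32, *Slco1a4* 0.30 among them) and of 4 ependymal markers 2 rose (*Foxj1* 1.13, *Rarres2* 0.97). The microglial score ran from 4.84 to 5.29 in sham and from 5.56 to 6.46 in TBI mice. The part of these shifts in the members' values was not tested.

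Among injured mice, some members followed the strength of the reactive response and some did not. The reactive score was the mean log2(CPM + 1) of the 8 reactive genes, and both it and each member were centred on the genotype mean over 29 TBI mice, giving 10 relations. *Slc1a3* rose with the score at r = 0.847 (Spearman rho = 0.836), *S100b* at r = 0.768 (rho = 0.738) and *Gja1* at r = 0.731 (rho = 0.74). For these 3 the permutation p for r was 1e-05, the smallest that 100000 resamples can give, and 3.33e-05 after adjustment over the 10 relations. For rho it was 1e-05 to 2e-05. *Slc4a4*, which had not passed between sham and TBI groups, had r = 0.585 (rho = 0.586, permutation p = 0.00089 and 0.00091, adjusted 0.00222 and 0.00227). *Aldh1l1* had r = 0.564 (rho = 0.578, permutation p = 0.00142 and 0.00122, adjusted 0.00284 and 0.00244). *Kcnj10* passed by r = 0.46 (permutation p = 0.0118, adjusted 0.0196) and not by rho = 0.361 (permutation p = 0.0547, adjusted 0.0912). Without E4/Abca1+/- TBI replicate 8 its rho was 0.423 (permutation p = 0.0259, not adjusted). *Slc1a2* had r = 0.079 (rho = 0.08, permutation p = 0.68 and 0.678) and *Aldoc* r = -0.065 (rho = -0.017, permutation p = 0.736 and 0.931). The 6 members that passed had r of 0.46 or more, which 15.6% of all genes reached, and the median r was 0.512 over the members and 0.018 over all 15171 genes. *Glul* and *Gjb6* had r = 0.271 and 0.255 (rho = 0.231 and 0.213, permutation p for r of 0.154 and 0.182, for rho of 0.226 and 0.267).

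These relations were recomputed in subsets. Without the 2 mice farthest from the median score, r was 0.824 for *Slc1a3*, 0.696 for *S100b*, 0.71 for *Gja1*, 0.58 for *Slc4a4*, 0.595 for *Aldh1l1* and 0.379 for *Kcnj10*, and *Kcnj10* no longer passed (adjusted permutation p = 0.0839). Within the shallower Abca1+/+ libraries (n = 15) r was 0.817, 0.841 and 0.71 for the first 3, and within the deeper Abca1+/- libraries (n = 14) 0.892, 0.652 and 0.774. Within Abca1+/- mice *Slc4a4* (r = 0.576, adjusted permutation p = 0.0807), *Aldh1l1* (r = 0.539, adjusted permutation p = 0.0952) and *Kcnj10* (r = 0.497, adjusted permutation p = 0.118) did not pass, and within Abca1+/+ mice *Kcnj10* did not (r = 0.437, adjusted permutation p = 0.177). For *Slc1a2* the same subsets gave -0.117 and 0.465. In E3/Abca1+/- TBI mice the score separated the sexes, since 3 males lay at 5.32 to 5.43 and 3 females at 5.98 to 6.04. With values centred on genotype and sex, r was 0.797 for *Slc1a3*, 0.723 for *S100b*, 0.678 for *Gja1*, 0.537 for *Slc4a4*, 0.509 for *Aldh1l1*, 0.412 for *Kcnj10* and 0.021 for *Glul*. With the microglial score in place of the reactive one, r was 0.808 for *S100b*, 0.684 for *Slc1a3*, 0.568 for *Aldh1l1* and 0.44 for *Gja1*. *Kcnj10* (r = 0.372, adjusted permutation p = 0.0949) and *Slc4a4* (r = 0.358, adjusted permutation p = 0.0952) did not pass with it. The part of the microglial score in the relations to the reactive score was not tested.

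**Figure D3:**
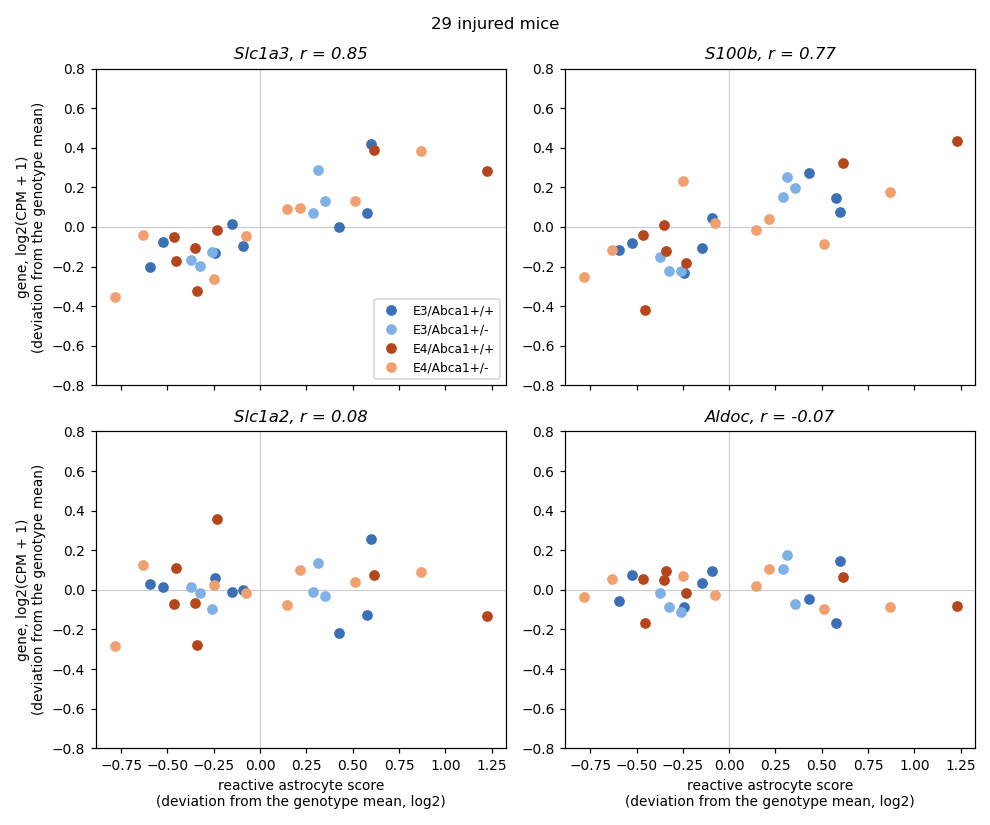
Deviation of a gene's log2(CPM + 1) from its genotype mean (vertical axis) against the deviation of the reactive astrocyte score (horizontal axis) in 29 injured mice, coloured by genotype. *Slc1a3* (r = 0.847) and *S100b* (r = 0.768) climb with the score, and *Slc1a2* (r = 0.079) and *Aldoc* (r = -0.065) do not.

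The members also varied together within groups, to unequal degrees. Over 58 mice, with group means removed, 44 of 45 pairs had a positive r, with a median of 0.399, and 39 had an adjusted permutation p under 0.05. These 39 had r of 0.269 or more, a value that 12.5% of all pairs among 11813 genes with at least 5 CPM reached. Over all those pairs 49.6% were positive and the median r was -0.003. The closest pair was *Slc1a3* with *Gja1* (r = 0.785, rho = 0.72, permutation p = 1e-05 for both, adjusted 9e-05 and 7.5e-05), followed by *Glul* with *Gjb6* (r = 0.731, rho = 0.69, permutation p = 1e-05 for both, adjusted 9e-05 and 7.5e-05). Leaving out the 2 mice farthest on the first gene gave 0.745 and 0.645. The *Slc1a3* and *Gja1* pair had r = 0.544 in sham and 0.834 in TBI mice, and the *Glul* and *Gjb6* pair 0.682 and 0.761. The one negative pair was *Slc1a2* with *S100b* (r = -0.108, rho = -0.09, permutation p = 0.42 and 0.5), with -0.33 in Abca1+/+ and 0.34 in Abca1+/- mice. All genes of a mouse share its library and dissection.

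**Figure D4:**
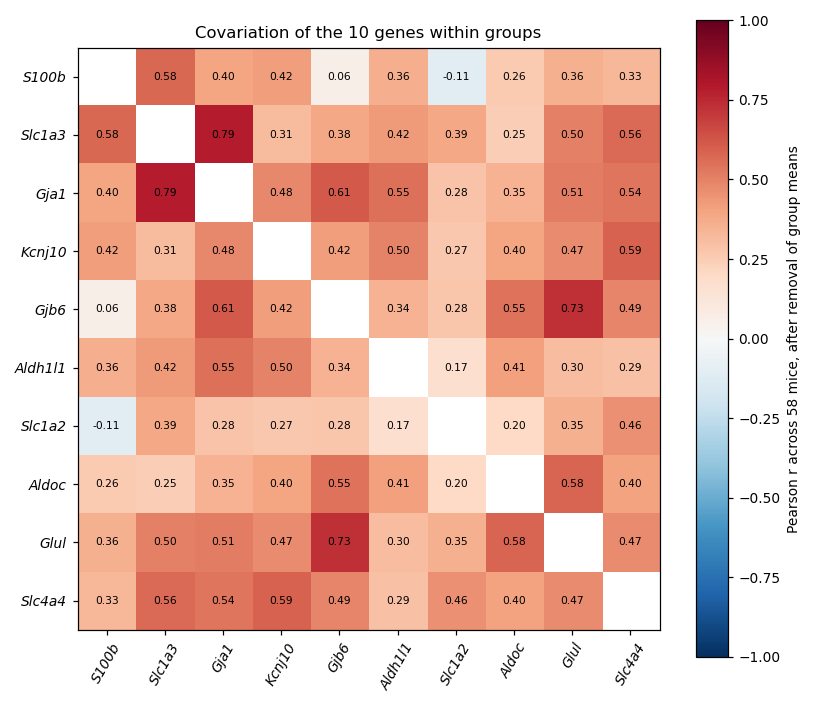
Pearson r between the 10 genes over 58 mice after group means were removed (colour scale from -1 to 1, value in each cell). The highest cells are *Slc1a3* with *Gja1* (0.785) and *Glul* with *Gjb6* (0.731), and the one below 0 is *Slc1a2* with *S100b* (-0.108).

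Outside the members, the genes most like their mean over 58 mice, of 11803 searched with at least 5 CPM, included *Ndrg2* (r = 0.81) and *Zcchc24* (r = 0.807). For single members the nearest gene was *Add3* for *Slc1a3* (r = 0.863), *Mlc1* for *Gja1* (r = 0.83), *Acot11* for *Glul* (r = 0.826), *Nacc2* for *Kcnj10* (r = 0.815) and *Npc2* for *S100b* (r = 0.786). For *Aldoc* it was *Ndrg2* (r = 0.773), for *Gjb6* *Acsl3* (r = 0.758), for *Slc4a4* *Ptch1* (r = 0.726), for *Slc1a2* *Marf1* (r = 0.722) and for *Aldh1l1* *P2rx4* (r = 0.644). These are the highest of many values and are given as a description.

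To examine the effect of *Abca1* copies, Abca1+/- mice were compared with Abca1+/+ mice. Averaged over isoform and injury, 1 of the 10 members was lower, *Slc1a2*, and 1 was higher, *S100b* (edgeR), beside 8.39% and 9.49% of all genes. *Slc1a2* had a mean of 3651.4 ± 274.2 CPM (SD, n = 28) in Abca1+/- and 4304.9 ± 515.5 CPM (SD, n = 30) in Abca1+/+ mice. The log2 fold change was -0.24 (SE 0.03, adjusted p = 2.77e-07, edgeR). In E3 sham mice the medians were 3502.5 and 4035.5 CPM in Abca1+/- and Abca1+/+, in E3 TBI mice 3733.8 and 4584.8, in E4 sham mice 3447.7 and 3919.6, and in E4 TBI mice 3895.3 and 4300.1 CPM. The Abca1+/- median was the lower in each of these 4 settings, with ranges that overlapped. Taken one setting at a time, the log2 fold change was -0.22 in E3 sham (adjusted p = 0.0173), -0.28 in E3 TBI (adjusted p = 0.0742), -0.20 in E4 sham (adjusted p = 0.0678) and -0.27 in E4 TBI mice (adjusted p = 0.0996, edgeR). DESeq2's Wald test called all 4, with adjusted p of 0.00196, 0.00302, 0.0174 and 0.0367. The shares of all genes called lower by edgeR were 0.883%, 0.0923%, 0.6% and 0.844%.

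The Abca1+/- libraries were the deeper, and *Slc1a2* was therefore set against depth. With the log2 total count as a covariate its log2 fold change was -0.26 (adjusted p = 7.42e-05, edgeR). After thinning all libraries to the smallest total it was -0.23 (adjusted p = 8.08e-07, edgeR). Every mouse had at least 17413 counts of *Slc1a2*, so thinning could hardly move its CPM and was no test of depth. The labels name no sequencing batch. Depth, or a batch that went with it, cannot be told apart from *Abca1* copies by design. Within Abca1+/+ mice *Slc1a2* had r = 0.215 with log2 total count (rho = 0.242, permutation p = 0.253 and 0.196, n = 30), and within Abca1+/- mice r = -0.207 (rho = -0.055, permutation p = 0.281 and 0.779, n = 28). Among the other lists, 3 of 6 cortical neuron genes and 3 of 6 endothelial markers were also lower in Abca1+/- mice, with median log2 fold changes of -0.17 and -0.15, and their part in the *Slc1a2* result was not tested. The *S100b* difference was small, 142.4 ± 34.5 CPM (SD, n = 28) against 129.6 ± 30.8 (SD, n = 30), a log2 fold change of 0.13 (SE 0.05, adjusted p = 0.044, edgeR). With depth as a covariate the estimate was larger, at 0.18, but no longer passed (adjusted p = 0.0529, edgeR). Without the pair of mice that stood apart it was 0.11 (adjusted p = 0.0847, edgeR). Within Abca1+/- mice *S100b* had r = -0.363 with log2 total count (rho = -0.395, permutation p = 0.0552 and 0.0384, n = 28). Within Abca1+/+ mice it had r = -0.033 (rho = -0.035, permutation p = 0.864 and 0.854, n = 30).

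For APOE isoform, 1 of the 10 members was called lower in E4 mice and 0 higher, near the shares of all genes. *Aldoc*, the glycolytic aldolase, had a mean of 864.2 ± 71.3 CPM in E4 and 926.9 ± 67.5 CPM in E3 mice (SD, n = 29 each), a log2 fold change of -0.11 (SE 0.02, adjusted p = 0.000364, edgeR). In the same fit 6.99% of all genes were called lower in E4 and 8.03% higher. Among single settings the largest difference was in Abca1+/+ sham mice, with medians of 792.7 CPM in E4 and 879.9 CPM in E3 mice (-0.14, adjusted p = 0.179, edgeR). In Abca1+/- sham mice it was -0.12 (adjusted p = 0.0552, edgeR), which DESeq2's Wald test called (adjusted p = 0.0135). The TBI groups gave -0.10 and -0.08 in Abca1+/+ and Abca1+/- mice (adjusted p = 0.76 and 0.466, edgeR). Of the 20 other astrocyte-enriched genes 4 were lower and 1 higher in E4 mice. Of the 21 further astrocyte transporters, channels and anchors 1 was lower and 3 were higher. Of 8 oligodendrocyte markers 6 were higher in E4 mice, with a median log2 fold change of 0.17, and their part in the *Aldoc* result was not tested.

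Females had more *S100b* and *Glul* than males. Averaged over the groups, with sex as a term, *S100b* was higher by 0.18 (SE 0.04, adjusted p = 0.00276) and *Glul* by 0.11 (SE 0.03, adjusted p = 0.014, edgeR), 2 of 10 members beside 5.21% of all genes called higher. None was called lower (4.94% of all genes). *S100b* had medians of 102.5 CPM in 15 male and 113.6 CPM in 14 female sham mice, and of 145.2 CPM in 15 male and 179.6 CPM in 14 female TBI mice. *Glul* had medians of 1392.6 and 1444.1 CPM in male and female sham mice, and of 1470.2 and 1645.0 CPM in male and female TBI mice. For *Slc1a3* the sham medians were 743.3 CPM in males and 762.4 CPM in females and the TBI medians 980.5 and 1153.9 CPM. Its averaged sex difference was 0.11 (adjusted p = 0.0706, edgeR), and its injury effect was 0.23 larger in females (95% interval 0.08 to 0.38, unadjusted p = 0.0038, adjusted p = 0.384, edgeR). The injury by sex term called 0 of the 10 members by edgeR (0.0% of all genes) and by DESeq2's Wald test. At an unadjusted p under 0.05 it gave 4, namely *Slc1a3*, *Aldh1l1* (0.19), *Gja1* (0.20) and *Slc4a4* (0.17), beside 7.47% of all genes. Other lists differed between the sexes too. In females 4 of 6 cortical neuron genes were lower (median log2 fold change -0.22), 2 of 8 neuronal markers lower (-0.04), 3 of 4 ependymal markers higher (0.83) and 2 of 6 microglial markers higher (0.10), and their part in the sex differences of the members was not tested. For injury by sex the 8 reactive genes had a median of 0.60, with 0 called and 6 under an unadjusted p of 0.05.

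**Figure D5:**
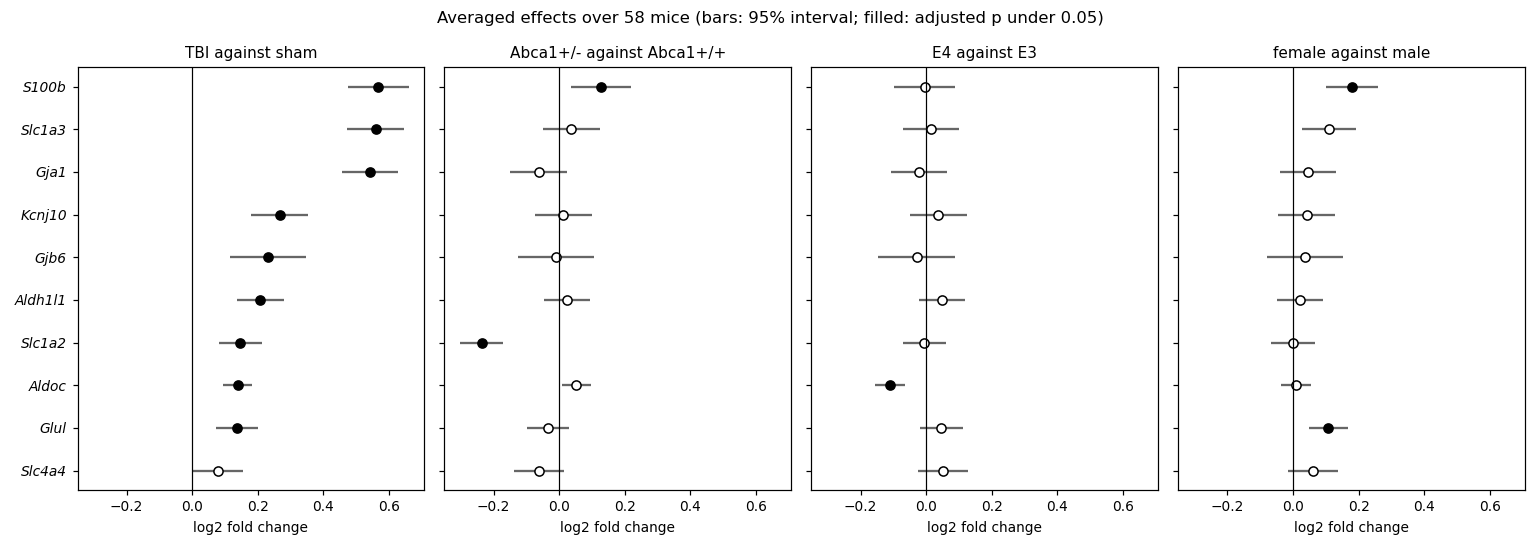
Log2 fold change (horizontal axis, with 95% intervals) of the 10 genes (vertical axis) for injury, *Abca1* copies, isoform and sex, each averaged over the other factors in 58 mice; filled points passed an adjusted p of 0.05. Injury fills 9 of 10 points, while *Abca1* copies fill *Slc1a2* and *S100b*, isoform fills *Aldoc*, and sex fills *S100b* and *Glul*.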

How the data were processed

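Hippocampus and cortex of 58 mice in 8 groups were measured by RNA sequencing. The deposited table holds raw read counts per gene, made by the authors from reads aligned to mm10 with Subread 1.5.0 and counted with featureCounts, per the submitters' processing notes. The strand setting and annotation are not given in the sources used here. A total of 2 blank rows were removed and 23 symbols turned into dates were restored by gene ID, leaving 15171 genes. Column names gave each mouse, and 0 of 183 pairs of mice within groups held identical values. Totals ran from 4421308 to 37877346 reads, and genes of few counts are the less precise.

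Counts were scaled by TMM (factors 0.954 to 1.04), filtered with filterByExpr (0 genes removed) and tested with the quasi-likelihood test of edgeR 4.0.16 (R 4.3.3, limma 3.58.1), with Benjamini-Hochberg adjustment over all 15171 genes and a threshold of 0.05. DESeq2 1.42.0 was the alternative test. Pairs of groups were fitted on their own, and averaged effects and interactions over 58 mice. Scores used log2(CPM + 1). Permutation tests used 100000 resamples or every arrangement (numpy 2.4.6, scipy 1.17.1, pandas 2.3.3, Python 3.11.15, matplotlib 3.10.9). Exon lengths and positions came from GENCODE vM21 and promoters from RefSeq GRCm38.p6, in which 14999 gene IDs matched. On simulated counts for E3/Abca1+/+, 200 of 15171 genes were changed, all drawn from the better expressed ones. Of those changed by 0.25 (log2) 44.8% were called, and of those changed by 0.5 94%, with 8 of 167 calls false. The data for this genotype gave 1896 genes higher and 1643 lower, so these rates need not carry over.

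The members and lists were chosen with earlier results of these data known. Named outside the members were the 2 genes of smallest p in each direction per list and those of the likeness rule, some of which are not reported here. *Aqp4* and the transporters not called were named after their values were seen. Alternatives were other scaling, filters, tests, covariates, thinning and mice left out. Depth as a covariate, the filter over the compared groups, the relation to depth, the sex-specific relations and the relations without the mice that stood apart were added after seeing the data.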

Additional observations from a re-analysis of the deposited data

Results flagged for a closer look

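In 9 of 80 groups of values, a gene in a group of 6 to 8 mice, the highest or lowest mouse lay far from the rest by Dixon's criterion, and chance gives about 1 in 20. E3/Abca1+/+ TBI replicate 8 was high for 3 genes: *Slc1a3* at 1504.5 CPM (next mouse 1184.8), *Gja1* at 406.7 CPM (next 300.8) and *Gjb6* at 125.3 CPM (next 90.7). E4/Abca1+/+ sham replicate 2 was high for *Kcnj10* at 313.6 CPM (next 230.2) and *Gjb6* at 81.4 CPM (next 69.3). The other 4 mice were single cases. *Slc1a3* was low in E3/Abca1+/+ sham replicate 2 at 676.1 CPM (next 743.3). *Kcnj10* was high in E3/Abca1+/- TBI replicate 5 at 344.0 CPM (next 272.2). *Gjb6* was low in E3/Abca1+/- sham replicate 6 at 51.9 CPM (next 64.5), and *Aldoc* was high in E3/Abca1+/- sham replicate 2 at 999.5 CPM (next 905.4).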

How the results depend on the processing

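No paired analysis was possible because each mouse gave 1 library in 1 group, and replicate numbers do not link mice between groups. Averaged over genotypes, injury called the same number of members, 9, under each alternative run. The ratio of *Gjb6* to *Gja1* in E3/Abca1+/- was -0.222 (exact permutation p = 0.0543 after adjustment over the 8 ratio tests) with permutation within sex, -0.262 (adjusted exact permutation p = 0.124) by medians and -0.275 to -0.184 with 1 mouse left out. The ratio of *Slc1a2* to *Slc1a3* in E4/Abca1+/+ was -0.279 (adjusted exact permutation p = 0.0666) by medians. Leaving out 1 mouse gave 3 to 8 members higher in E4/Abca1+/+. There *Aldoc* passed with sex as a covariate (adjusted p = 0.0402), at least 10 counts in every mouse (0.0373), the filter over the compared groups (0.0484), a single fit (0.0097) and DESeq2 (0.0262), *Gjb6* with all of these but the single fit (0.0388 to 0.0467), and *Aldh1l1* was lost when thinned (0.0769). In E3/Abca1+/+ a single fit also called *Aldoc* (0.0266). The number related to the reactive score was 3 within Abca1+/- and 3 within female mice. Within male mice *Aldh1l1* (r = 0.525, adjusted permutation p = 0.101) and *Kcnj10* (r = 0.494, adjusted permutation p = 0.104) did not pass. Nor did they within female mice (r = 0.503 and 0.377, adjusted permutation p = 0.151 and 0.265). For *Abca1* copies the averaged number was 1 with depth as a covariate and 1 without the pair of mice apart. In single settings it was 0 in E3 sham and 1 in E3 TBI and E4 TBI with a single fit over 58 mice, and 1 in E3 TBI, E4 sham and E4 TBI with DESeq2, which also gave 1 for isoform in Abca1+/- sham mice. Signs turned for values not called: r of *Aldoc* with the score was 0.122 without the 2 farthest mice, 0.008 within Abca1+/-, 0.114 with *Gfap* alone and 0.08 in males, of *Slc1a2* -0.117 within Abca1+/+, and of *Glul* -0.12 in females. With 1 mouse left out the log2 fold change of *Slc4a4* in E3/Abca1+/+ ran from -0.003 (without TBI replicate 8) to 0.063. For *Abca1* copies *Kcnj10* had -0.001 thinned and -0.006 with depth as a covariate, and *Glul* 0.033 with that covariate. The cause of these changes was not tested. Depth limits *Aldh1l1* most, with 225 counts in the mouse with fewest.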

Other observations

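The same relations to the reactive astrocyte score were computed in the 29 sham mice. *Gja1* had r = 0.599 (rho = 0.482, permutation p = 0.00225 and 0.00842) and *Slc1a3* r = 0.385 (rho = 0.298, permutation p = 0.0439 and 0.118), while *S100b* had r = 0.089 (rho = 0.149, permutation p = 0.658 and 0.44). *Aldoc* had r = 0.473 (rho = 0.618, permutation p = 0.0141 and 0.00046) in sham mice, and *Aldh1l1* r = 0.384 (rho = 0.5, permutation p = 0.034 and 0.00652). Without E4/Abca1+/- sham replicate 2, whose score stood apart, r was 0.515 for *Gja1* (permutation p = 0.00508), 0.159 for *Slc1a3* (permutation p = 0.421), 0.629 for *Aldoc* (permutation p = 0.00032) and 0.504 for *Aldh1l1* (permutation p = 0.00642), so that the *Slc1a3* relation rested on that mouse. *Gjb6* had r = 0.247 (rho = 0.22, permutation p = 0.198 and 0.252) in all sham mice. Without that mouse its r was 0.375 (rho = 0.317, permutation p = 0.0486 and 0.101). The difference between sham and TBI mice was not tested, and these p-values are not adjusted over the 10 members.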
